A study of Mus musculus with 4 samples.

Results

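The genes described here are 10 immediate early genes of the AP-1, Egr, and Zfp36 families, *Fos*, *Fosb*, *Fosl1*, *Fosl2*, *Jun*, *Junb*, *Jund*, *Egr1*, *Atf3*, and *Zfp36*, chosen by name among the 17419 genes listed in at least 1 of the normalized single-cell tables. All 10 were listed in the normalized tables of the 4 neural stem cell (NSC) lines and in the 3 tables of all reads. The lines were derived from mouse epiblast stem cells (EpiSCs) of the 129/Sv background and kept with EGF and FGF2, at 10 ng/ml each, with 1 BD Rhapsody library each. XN4 was derived and cultured with 10 µM XAV939 (XAV), a Wnt antagonist, from supplier B, and XN1 with 10 µM XAV from supplier A, in which crystalline precipitates were seen. KN1 had neither agent, and CN4 had 2 µM CHIR99021 (CHIR), a Wnt agonist. Cells of every line were detached with Accutase, strained, and kept in the preservative CellCover in the cold for up to 2 weeks before capture. As these genes also respond to handling, culture state and cell preparation cannot be told apart as sources of their reads.

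AP-1 is a dimer of basic leucine zipper proteins, in which a Fos family protein (Fos, Fosb, Fosl1, Fosl2) joins a Jun family protein (Jun, Junb, Jund), while Jun proteins can also pair with one another or with Atf3. In resting cells most of these genes are nearly silent. Growth factors such as EGF and FGF act through MAP kinases on serum response factor with its ternary complex partners, and on factors that bind cyclic AMP response elements, to switch them on within minutes without new protein synthesis. *Egr1* encodes a zinc finger transcription factor switched on by the same route, and *Zfp36* (tristetraprolin) encodes an RNA-binding protein that brings short-lived mRNAs, including immediate early ones, to decay.

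The 150 bases before the RefSeq start site (GRCm38.p6) are shown for *Fos*, *Fosb*, *Junb*, and *Zfp36*, which were grouped after their capture in the same cells, described further on, was seen, and for *Jun*, the main partner of Fos. Windows of 8 of the 10 genes were used, and none of *Fosl1* and *Egr1*. Capitals mark the core TGACG of cyclic AMP response elements, the Jun site TGACATCA, the CArG box bound by serum response factor, the Egr site GCGGGGGCG, and the TATAAA box, searched on either strand except for the TATAAA box. The lines give 5′ to 3′ sequence in the direction of transcription, and the window of *Zfp36* lies inside its longer GENCODE gene.
Fos, chr12:85473740-85473889, strand plus: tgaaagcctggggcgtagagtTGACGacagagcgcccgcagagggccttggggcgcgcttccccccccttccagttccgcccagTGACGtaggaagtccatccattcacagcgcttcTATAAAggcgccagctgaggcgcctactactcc
Fosb, chr7:19310046-19310195, strand minus: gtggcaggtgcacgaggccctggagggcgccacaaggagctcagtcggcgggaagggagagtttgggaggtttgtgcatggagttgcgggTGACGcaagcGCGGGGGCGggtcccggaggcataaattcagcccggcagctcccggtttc
Junb, chr8:84978749-84978898, strand minus: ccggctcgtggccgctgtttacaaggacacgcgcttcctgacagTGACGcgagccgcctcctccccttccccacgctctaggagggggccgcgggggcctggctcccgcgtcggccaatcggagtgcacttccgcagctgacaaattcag
Zfp36, chr7:28379229-28379378, strand minus: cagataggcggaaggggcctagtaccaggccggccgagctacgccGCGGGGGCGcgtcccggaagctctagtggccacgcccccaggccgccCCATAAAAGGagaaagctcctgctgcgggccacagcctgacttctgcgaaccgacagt
Jun, chr4:95052223-95052372, strand minus: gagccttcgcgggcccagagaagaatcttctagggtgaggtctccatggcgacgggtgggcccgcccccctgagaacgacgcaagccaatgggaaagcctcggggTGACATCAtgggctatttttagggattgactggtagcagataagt
The short site TGACG was found in *Fos* at 129 and 66 bases before the start, in *Fosb* at 60, and in *Junb* at 106. It was also found in *Atf3*, on the opposite strand, and it was present in 13.3% of all 32851 windows of this length. A CArG box was found in *Zfp36* alone among the 8, 58 bases before the start, and in 0.916% of all windows. A site not found is absent from these 150 bases alone, as sequence further upstream was not searched. The window of *Jund* (chr8:70697589-70697738) ends well before its GENCODE gene, which starts at 70698949. The Egr site was found in *Fosb*, *Fosl2*, and *Zfp36*, and in 2.09% of all windows, and TGACATCA was found in *Jun* alone among the 8, and in 2.32% of all windows. Neither the full cyclic AMP response element TGACGTCA nor the AP-1 site TGANTCA, in which N is any base, was found in the windows of the 8 genes, and 1.36% and 4.24% of all windows held them.

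Levels are given as reads of a gene per 10000 reads of its line in the normalized tables, which leave out ribosomal protein and mitochondrial genes, with exact Poisson 95% intervals. A cell fraction is the percentage of cells with at least 1 read, with exact Clopper-Pearson 95% intervals. Reads are not molecules, intervals cover counting error only, and with 1 library per line no test between lines was made. The tables held 19271688 to 41539513 reads in 3448 to 3975 cells per line, with a median of 4637 to 7796 reads per cell. The lines shared 14 to 21 cell barcodes by pair, at most 0.580% of the smaller table. To compare lines at the same number of reads per cell, each cell was also thinned to 3200 reads, which left 3129 to 3396 cells per line. This did not equalize the genes detected per cell, nor the reads per detected gene in a cell, which averaged 7.39 in KN1 and 2.14 to 3.90 in the other lines before thinning.

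XN4 and KN1 stood apart from the other lines. In XN4 *Sox2*, a defining NSC factor, was captured in 0.560% of cells, against 62.2% in XN1, 13.9% in KN1, and 83.9% in CN4. *Sox1*, *Sox3*, *Fabp7*, and *Hes5* were not listed in XN4, and *Sox1* was not listed in XN1 either. The 12 neural progenitor markers summed to 15.4 reads per 10000 in XN4, against 22.4 to 85.9 in the other lines. Most of the XN4 sum was *Vim*, at 13.3 and in 84.4% of XN4 cells. *Vim* was at 16.7 in XN1, 4.87 in KN1, and 22.6 in CN4, so not every marker was lowest in XN4. Of 15 connective tissue markers, 13 were captured in at least 1% of XN4 cells, and they summed to 113 reads per 10000, against 0.361 to 2.74 in the others. In KN1 the median cell had 833 genes, against 2257 to 2824 in the other lines, and after thinning 766 against 1650 to 1845. The part of these differences in the values below was not tested, so each comparison that includes XN4 or KN1 is read beside that of CN4 and XN1, which includes neither. The paper's supplement places CN4 and XN1 in different derivation experiments by different experimenters, so that comparison also crosses experiments.

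*Fos*, the founding AP-1 gene (chr12:85473890-85477273, plus strand), was at 2.58 reads per 10000 in CN4, 1.35 in XN4, 1.05 in XN1, and 0.191 in KN1. The level in CN4 was 2.46 times that in XN1 (95% interval 2.34 to 2.59) and 13.5 times that in KN1 (12.3 to 14.8). The cell fraction with *Fos* was 39.2% in CN4 (37.5% to 40.8%), 33.2% in XN4 (31.8% to 34.7%), and 19.9% in XN1 (18.7% to 21.2%), and KN1 had 2.09% (1.67% to 2.58%). The order of the lines was the same on each of these measures. No intervals overlapped, but the share of all genes for which this holds is not given. After thinning, the cell fractions were 31.0%, 22.5%, 16.4%, and 1.83%, in the same order.

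*Fosb* encodes a close relative of Fos (chr7:19302696-19310051, minus strand). It was at 0.353 reads per 10000 in KN1 (0.331 to 0.376), 0.319 in CN4 (0.296 to 0.343), 0.317 in XN4 (0.3004 to 0.3349), and 0.0970 in XN1 (0.0836 to 0.112). XN1 was lowest, and XN4 was 3.27 times above it. The level in XN4 was 0.899 times that in KN1 (95% interval of the ratio 0.827 to 0.977). The level in CN4 was 0.904 times that in KN1 (0.820 to 0.996), and XN4 and CN4 had a ratio of 0.995 (0.908 to 1.09). These intervals treat each read as an independent count, so no excess in KN1 is drawn from them. KN1, the lowest line in *Fos*, was thus not the lowest in *Fosb*. In cell fraction the order differed, with 11.6% in XN4, 11.4% in CN4, 5.16% in KN1, and 3.33% in XN1. The KN1 cells with *Fosb* held 4.75 reads of it on average, against 1.44 in XN1, 1.86 in CN4, and 2.90 in XN4.

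*Fosl1* (Fra-1), a Fos family gene known from migrating and invading cells (chr19:5447547-5455946, plus strand), was low in every line. Its level was 0.121 reads per 10000 in XN4 (0.110 to 0.132), 0.0166 in XN1 (0.0114 to 0.0234), 0.0102 in KN1 (0.00675 to 0.0147), and 0.00436 in CN4 (0.00209 to 0.00801). It was captured in 142 of 3927 XN4 cells, or 3.62%, and in 25 of XN1, 14 of KN1, and 8 of CN4. XN4 was 7.26 times above XN1 (5.08 to 10.7), while the other 3 lines overlapped with their neighbors in this order. *Fosl2* (Fra-2), a later-acting gene of the family (chr5:32135801-32157842, plus strand), was at 0.559 in XN4, 0.225 in XN1, 0.107 in CN4, and 0.0755 in KN1. It was captured in 21.3% of XN4 cells, 8.02% of XN1 cells, 5.08% of CN4 cells, and 1.06% of KN1 cells. Both genes were thus highest in XN4. The intervals of *Fosl2* did not overlap between any of the lines, and the share of all genes for which this holds is not given.

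*Jun*, the main partner of Fos (chr4:95049034-95052222, minus strand), was at 3.84 reads per 10000 in CN4, 1.71 in XN1, 1.51 in KN1, and 0.698 in XN4. Its level in CN4 was 5.51 times that in XN4 and 2.25 times that in XN1 (2.16 to 2.34). It was captured in 69.0% of CN4 cells, 42.5% of XN1 cells, 20.0% of XN4 cells, and 17.6% of KN1 cells. After thinning the fractions were 55.4%, 34.1%, 11.3%, and 15.2%, so XN4 was lowest at the same number of reads per cell. *Jun* was therefore lowest in the line that had the highest *Fosl1*, *Fosl2*, and *Junb*.

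*Junb*, whose protein can restrain Jun in proliferating cells (chr8:84974484-84978718, minus strand), was at 1.33 reads per 10000 in XN4, 0.602 in XN1, 0.353 in CN4, and 0.109 in KN1. It was captured in 41.7%, 18.6%, 12.9%, and 1.91% of cells in the same order of lines. *Jund*, the Jun family member expressed most steadily across cell states (chr8:70698949-70700616, plus strand), was at 3.51 in CN4, 2.62 in XN1, 2.46 in XN4, and 1.505 in KN1. It had the smallest range of the 10 genes, 2.33-fold from highest to lowest, against 3.64-fold for *Fosb* and 27.7-fold for *Fosl1*. *Jund* was captured in 75.8% of CN4 cells, 60.9% of XN4 cells, 59.2% of XN1 cells, and 20.7% of KN1 cells.

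*Egr1* was at 7.43 reads per 10000 in XN4 (7.35 to 7.52), 3.33 in CN4 (3.26 to 3.41), 2.08 in XN1 (2.02 to 2.15), and 1.44 in KN1 (1.39 to 1.48). It was captured in 78.7% of XN4 cells, 48.3% of CN4 cells, 32.1% of XN1 cells, and 17.96% of KN1 cells, and in 70.1%, 39.6%, 28.3%, and 15.1% after thinning. XN4 cells with *Egr1* held 9.99 reads of it on average, and 1 cell held 115. *Zfp36* (chr7:28376784-28380253, minus strand) followed *Egr1* in being highest in XN4, at 2.54 reads per 10000, but was lower in CN4 (0.464) than in XN1 (0.709), and lowest in KN1 (0.116). It was captured in 47.3% of XN4 cells, 18.6% of XN1 cells, 14.8% of CN4 cells, and 1.31% of KN1 cells. *Atf3*, which encodes a stress-induced partner of Jun (chr1:191170296-191218039, minus strand), was rare in every line, at 0.0794 in XN1 (0.0673 to 0.0930), 0.0403 in KN1 (0.0331 to 0.0485), 0.0244 in CN4 (0.0184 to 0.0317), and 0.0118 in XN4 (0.00873 to 0.0156). XN1 had 125 cells with *Atf3*, or 3.20%, XN4 27, KN1 29, and CN4 40. *Atf3* was thus lowest in XN4, where *Egr1* and *Zfp36* were highest.

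**Figure D1:**
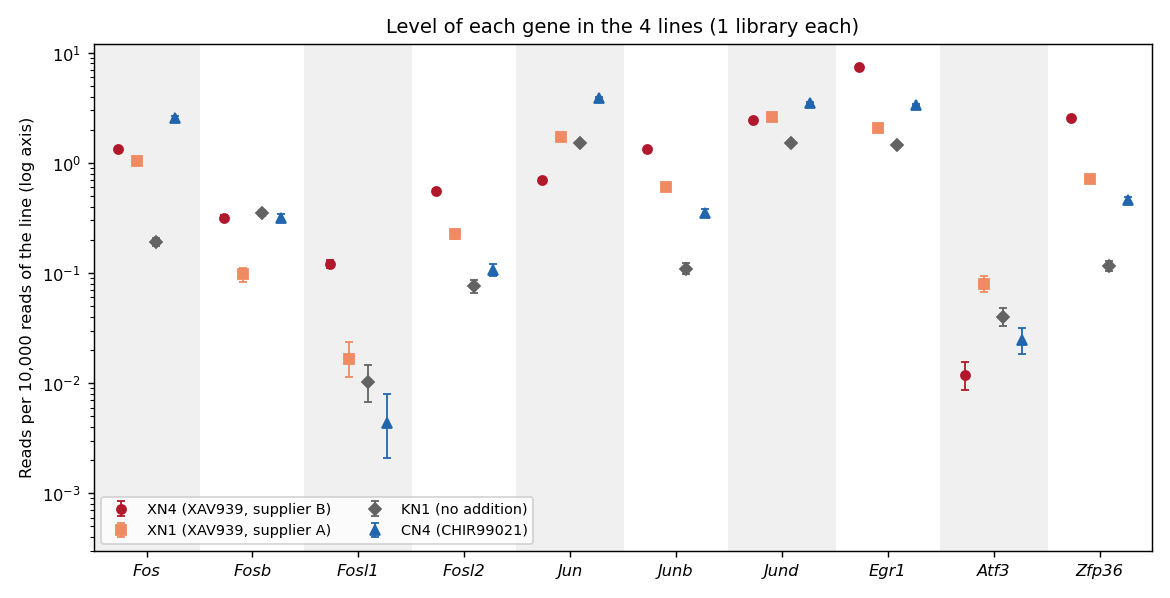
Level of each of the 10 genes (horizontal axis) in the 4 lines, in reads per 10000 reads of the line on a log axis; symbols are lines and bars are exact Poisson 95% intervals, hidden by the symbol where narrow. XN4 (circles) was highest for 5 genes and lowest for *Jun* and *Atf3*, CN4 (triangles) was highest for *Fos*, *Jun*, and *Jund*, and KN1 (diamonds) was lowest for 6.

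**Figure D2:**
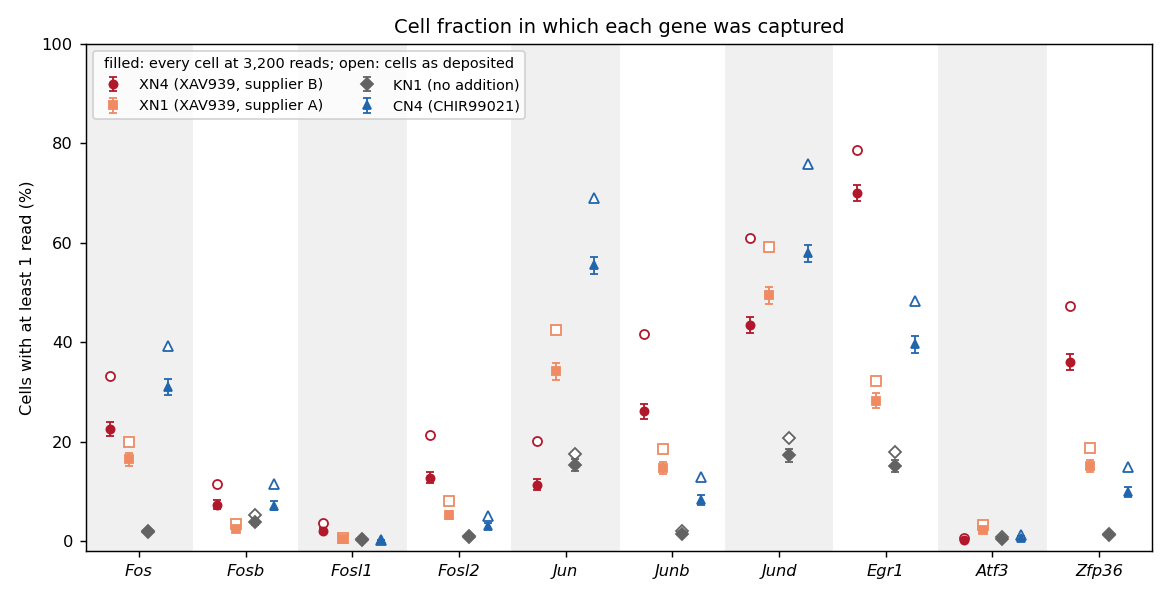
Percentage of cells with at least 1 read of each gene (horizontal axis) in the 4 lines; open symbols are the cells as deposited, filled symbols the cells thinned to 3200 reads, and bars are exact 95% intervals of the thinned fractions. *Egr1* in XN4 (70.1% after thinning) was the highest filled value, and *Fos*, *Junb*, and *Zfp36* were near 0 in KN1.

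Across the 10 genes, 5 had their highest level in XN4 (*Fosl1*, *Fosl2*, *Junb*, *Egr1*, and *Zfp36*), 3 in CN4 (*Fos*, *Jun*, and *Jund*), *Atf3* in XN1, and *Fosb* in KN1. Of the 13802 genes captured in at least 1% of cells of any line, 29.0% had their highest level in XN4 and 21.7% in CN4. KN1 had the lowest level for 6 of the 10, against 35.0% of all genes. The same 6 were lowest there in thinned cell fraction, where 65.4% of all genes were, so the lower fractions in KN1 were not particular to them. The plots of level and of cell fraction by line show this change of order from gene to gene.

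Counts of genes at least 2-fold apart were read against all genes captured in at least 1% of the cells of either line. XN4 was at least 2-fold above XN1, the other XAV line, in 6 of the 10 genes, against 20.2% of 13261 genes, and at least 2-fold below it in *Jun* and *Atf3*, against 15.0%. The higher genes were *Zfp36* (3.58-fold), *Egr1* (3.57-fold), *Fosb* (3.27-fold), *Fosl1*, *Fosl2* (2.48-fold), and *Junb* (2.21-fold), while *Fos* was 1.29-fold higher and *Jund* 1.06-fold lower. *Junb* fell under 2-fold in the tables of all reads (log2 ratio 0.91) and in thinned cell fraction (0.84). The median log2 ratio was 1.23 over the 10 genes and 0.13 over all genes. Against CN4, XN4 was at least 2-fold higher in 5 of 10, against 19.9% of 13421 genes, with *Fosl1* at 27.7-fold (14.9 to 58.1), *Zfp36* at 5.46-fold, *Fosl2* at 5.23-fold, *Junb* at 3.77-fold, and *Egr1* at 2.23-fold. It was at least 2-fold lower in *Jun* and *Atf3*, against 16.7%, though *Atf3* (2.07-fold, from 49 and 56 reads) fell under 2-fold in the tables of all reads (log2 ratio -0.95). *Egr1* was called here by a small margin, with a log2 ratio of 0.99 for the mean share of a cell's reads and 0.82 for the thinned cell fraction.

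Without XN4, the comparison of the CHIR line with the XAV line XN1 had 9 of the 10 genes past the filter, as *Fosl1* did not reach 1% in either. CN4 was at least 2-fold above XN1 in 3 of the 9, *Fosb* (3.29-fold), *Fos* (2.46-fold), and *Jun* (2.25-fold), against 9.55% of 12518 genes. It was at least 2-fold below in *Atf3* (3.25-fold) and *Fosl2* (2.11-fold), against 9.62%. *Junb* was 1.71-fold and *Zfp36* 1.53-fold lower in CN4, and *Egr1* was 1.599-fold and *Jund* 1.34-fold higher, so members of 1 family did not share a direction. In thinned cell fraction, 2 of the 9 stayed 2-fold apart, *Fosb* and *Atf3*, and no share of all genes is given for that measure. By level, the Fos family members *Fosb* and *Fosl2* thus lay on opposite sides of 2-fold between the same lines. The CN4 over XN1 ratio of *Fosl2*, 0.474, had an interval of 0.404 to 0.556, which reached under 2-fold. Its thinned cell fractions were 3.01% in CN4 and 5.18% in XN1.

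KN1 was compared with each other line with 9 genes past the filter. CN4 was at least 2-fold above KN1 in 6 of 9 genes, against 23.5% of 12581 genes, and in none at least 2-fold below, against 20.7%. XN1 was at least 2-fold above KN1 in *Fos* (5.48-fold), *Zfp36* (6.12-fold), *Junb* (5.51-fold), and *Fosl2* (2.98-fold), against 25.0% of 12479 genes, and below it in *Fosb* (3.64-fold), against 24.4%. XN4 was above KN1 in 6 of 9, against 26.7% of 13177 genes, with *Zfp36* at 21.9-fold, and below in *Jun* (2.17-fold), against 21.4%. Neither lower call reached 2-fold in thinned cell fraction. *Fosb* was in 2.33% of XN1 and 3.80% of KN1 cells, and *Jun* in 11.3% of XN4 and 15.2% of KN1 cells. In thinned cell fraction, the median gene was itself higher in the other lines than in KN1, by 1.18 in XN4, 1.29 in XN1, and 1.32 in CN4 on the log2 scale. The levels of all genes had no such shift, with medians of 0.04 to 0.14. On the log2 scale of levels, *Fos*, *Junb*, and *Zfp36* were 2.46, 2.46, and 2.61 higher in XN1 than in KN1, whereas *Jun* and *Egr1* were 0.17 and 0.53 higher. *Malat1*, a nuclear RNA, was at 320 reads per 10000 in KN1, 142 in XN4, 53.0 in XN1, and 32.8 in CN4. Leaving *Malat1* out of the totals, together with the gene *Gm42418*, changed the direction of no called ratio. Any other part of *Malat1* in these values was not tested.

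**Figure D3:**
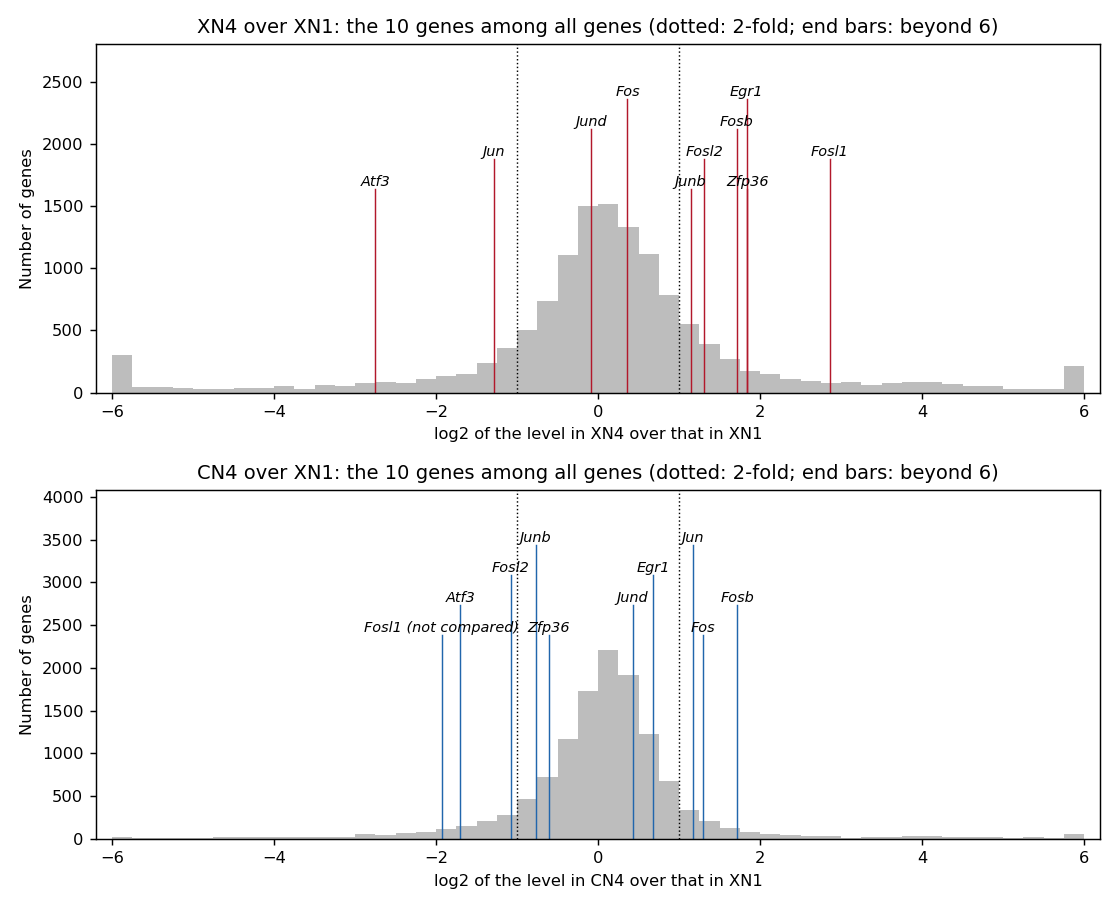
Log2 ratio of levels for XN4 over XN1 (top) and CN4 over XN1 (bottom), with gray bars for the number of all compared genes per bin, ratios beyond 6 collected in the end bars, and colored lines for the 10 genes. In the top panel 6 of the 10 lines stand right of the 2-fold mark, and in the bottom panel *Fosb*, *Fos*, and *Jun* stand right of it while *Atf3* and *Fosl2* stand left.

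Within a line, the genes were not captured in the same cells to the same degree. For each pair, the cells that held both genes were counted and set against the count that their separate cell fractions give within 20 strata of like total reads, for pairs of genes captured in at least 1% of cells. XN4 had a median ratio of 1.09 over 36 pairs, of which 33 were above 1. The median was 1.22 over 36 pairs of XN1, 36 of them above 1, 1.59 over 28 pairs of KN1, 27 above 1, and 1.21 over 36 pairs of CN4, 33 above 1. Over all pairs of genes in at least 1% of cells that had at least 5 expected cells, the median was 1.00 in XN4, XN1, and CN4 and 1.01 in KN1, with 50.2% to 52.7% of pairs above 1. Under the same limit the pairs of members had medians of 1.09 in XN4 (33 of 36 above 1), 1.21 in XN1 (35 of 35), 1.38 in KN1 (18 of 19), and 1.21 in CN4 (32 of 34). These pairs share cells and libraries, and the ratios describe capture in them.

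*Fos*, *Fosb*, *Junb*, *Egr1*, and *Zfp36* were grouped after the ratios were seen, so their values describe the choice. Their 10 pairs had a median of 1.17 in XN4, while XN1, KN1, and CN4 had 1.65, 1.67, and 1.70, and they lay above 1 in every line. In KN1, 5 of the 10 had under 5 expected cells, and the interval of 4 of these 5 included 1. Among the other 5, *Junb* with *Egr1* (1.38, 0.862 to 2.08) and *Egr1* with *Zfp36* (1.66, 0.998 to 2.59) also had intervals that included 1. They were not the highest of all pairs in every line, as *Fosl1* with *Jun* led in XN4 (2.08) and *Fosb* with *Atf3* in CN4 (2.75). *Fos* and *Fosb* were in the same cell 1.77 times as often as depth gives in XN4 (275 cells, 95% interval 1.57 to 1.99), 3.002 times in XN1 (83 cells, 2.39 to 3.72), 2.96 times in KN1 (19 cells, 1.78 to 4.63), and 2.05 times in CN4 (315 cells, 1.83 to 2.28). *Fos* and *Egr1* reached 1.10 in XN4, where 78.7% of cells held *Egr1*, 1.66 in XN1, 1.596 in KN1, and 1.41 in CN4. In CN4 *Fosb* and *Junb* reached 2.41 (2.00 to 2.87), and in XN1 *Fosb* and *Zfp36* reached 2.21 (1.67 to 2.86). A gene captured in most cells can exceed its expected number only a little, which limits the ratios of *Egr1* in XN4, of *Jun* in CN4, and of *Jund* in XN4, XN1, and CN4.

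*Jund* had a median ratio with the other genes of 1.03 in XN4 and 1.07 in XN1 and CN4. In KN1, where it was captured in fewer cells, its median was 1.09 over a range of 0.522 to 1.58, with *Fos* at 1.58 (1.11 to 2.19) and *Jun* at 1.19 (1.03 to 1.37). *Jun* in CN4 had a ratio of 1.16 with *Fos*, 1.24 with *Fosb*, 1.18 with *Junb*, 1.122 with *Egr1*, and 1.11 with *Zfp36*. In XN4 the same ratios were 1.117, 1.36, 1.07, 1.02, and 0.989, and in XN1 1.22, 1.43, 1.21, 1.23, and 1.14. In KN1 they were 1.73, 1.57, 1.83, 1.18, and 1.82, on 21 to 176 cells. *Atf3* cells were few, but in CN4 13 of them held *Fosb* (2.75, interval 1.47 to 4.71) and 15 held *Zfp36* (2.56, interval 1.43 to 4.22). In CN4 0 of them held *Fosl2*, with 1.93 expected. XN1 had the most *Atf3* cells, 125, and there both intervals included 1, with *Fosb* at 1.32 (0.483 to 2.87) and *Zfp36* at 1.21 (0.817 to 1.73).

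In XN4 *Fosl1* kept other company. Its cells held *Jun* 2.08 times as often as depth gives (103 cells, interval 1.70 to 2.52) and *Fosl2* 1.65 times (83 cells, 1.31 to 2.04). They held *Fos* 0.721 times as often (47 cells, 0.530 to 0.959) and *Fosb* 0.842 times (15 cells, 0.471 to 1.39). With *Junb* the ratio was 1.26 (109 cells, 1.03 to 1.52), and with *Egr1* and *Zfp36* it was 1.01 and 1.00. The same cells held *Spp1*, the secreted phosphoprotein osteopontin, 2.58 times as often (109 cells, interval 2.12 to 3.11). *Spp1* was chosen with earlier results of these data known, so this ratio describes the choice. Nor was it alone, as *Hmga2* was at 2.29 (1.89 to 2.73) and *Ccnd1* at 1.79 (1.48 to 2.14). *Mki67* and *Ier2* were at 0.896 and 0.916, with intervals that included 1. *Cxcl12*, a chemokine gene, was at 0.432 times (28 cells, 0.287 to 0.624). *Fosl2* and *Jun* were with *Spp1* at 1.402 and 1.33 times their expected number, while *Fos* was at 1.01, *Egr1* at 1.02, *Zfp36* at 1.077, *Junb* at 1.121 (1.01 to 1.24), and *Fosb* at 1.19 (0.958 to 1.45). *Fosl1* was too rare in the other lines for such ratios.

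**Figure D4:**
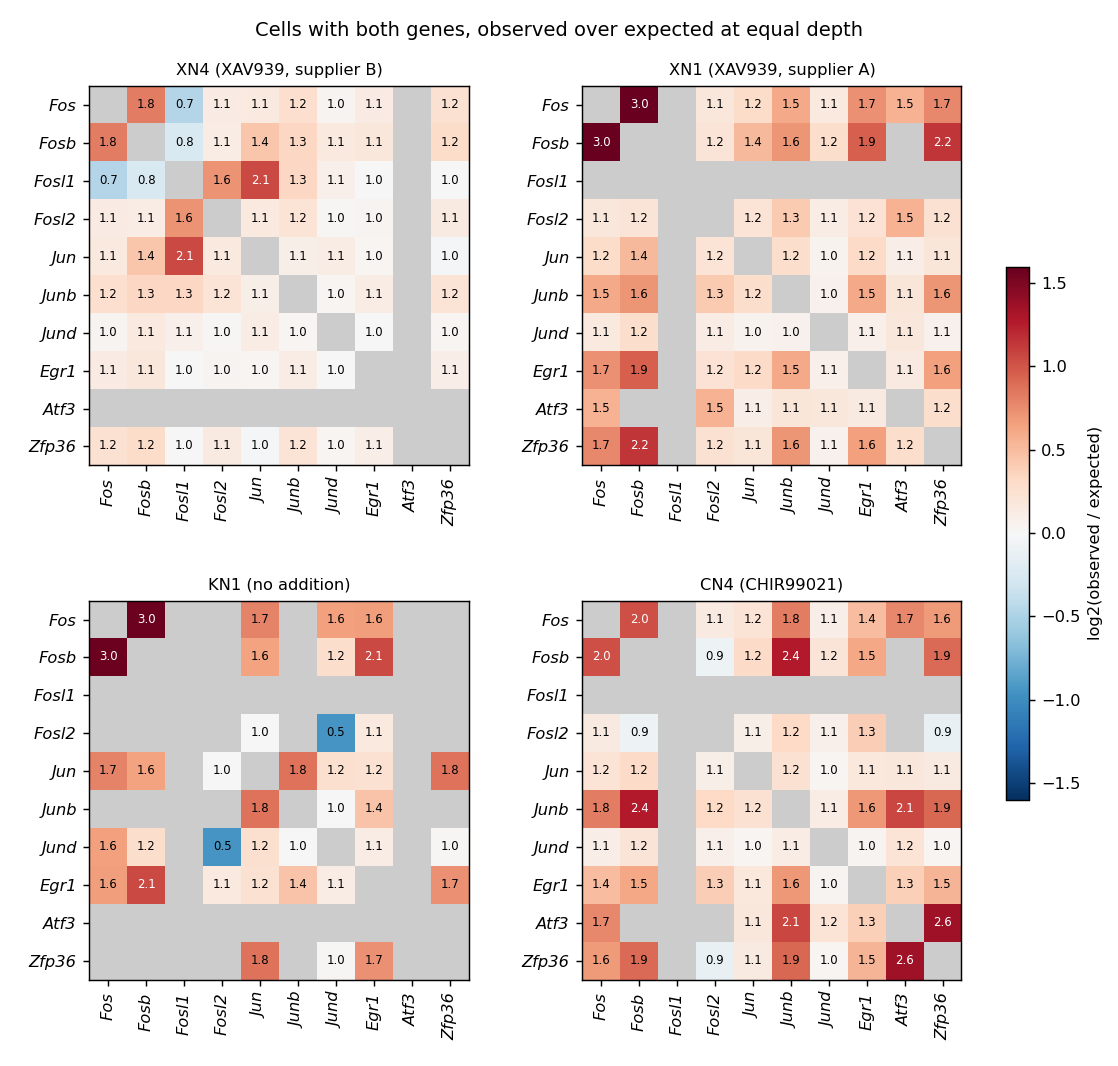
Cells with both genes of a pair, observed over expected within strata of depth, for each line; numbers are the ratio, color is its log2, and gray marks pairs with under 5 expected cells or a gene under 1% of cells. *Fos*, *Fosb*, *Junb*, *Egr1*, and *Zfp36* were above 1 with each other in XN4, XN1, and CN4, and in KN1 for the 5 of their 10 pairs that are not gray. *Jund* was near 1 in XN4, XN1, and CN4, and *Fosl1* in XN4 was above 1 with *Jun* and *Fosl2* and below 1 with *Fos*.

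The genes most like each member were found by correlating capture (phi, from 0 or 1 in each cell) across thinned cells with all other genes captured in at least 5% of them. The correlations were low and share the cells of a library, and they are given as a description. In CN4 *Egr1* and *Fos* were each the most alike gene of the other among 8122 genes, with phi of 0.32 over 3158 cells. All 7 members that reached 5% in CN4 had another member among their 3 most alike genes, the gene after *Fos* and *Junb* for *Egr1* being *Ier2*, another immediate early gene (0.22). In XN1, 5 of 7 had one, and *Fos* and *Egr1* were again first for each other (0.20 over 3129 cells, 8012 genes). The other 2 in XN1 were *Fosl2*, nearest to *Rasl11a* (0.11), *Ccl2* (0.10), and *Ier3* (0.09), and *Jund*, nearest to *Ccnd2* (0.09), *Mmp2* (0.09), and *Hist1h2bc* (0.09). *Ccl2* encodes a chemokine and *Ccnd2* a D-type cyclin.

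In XN4, 6 of 8 had another member among the 3 most alike of 7843 genes, over 3384 cells. *Fos* and *Fosb* were first for each other (0.19), followed for *Fos* by *Cxcl12* (0.15) and *Egr1* (0.15). *Egr1* and *Zfp36* were first for each other (0.17), with *Cyr61*, a matricellular immediate early gene, second for *Egr1* (0.15). *Jun* in XN4 was nearest to *Ccnd1* (0.17), *Hmga2* (0.16), and *Ass1* (0.15), and *Fosl2* to *Spp1* (0.14), *Ccnd2* (0.12), and *Cdkn2a* (0.11), with no member among them. *Ccnd1* encodes a D-type cyclin, *Hmga2* a chromatin protein of growing tissue, and *Cdkn2a* inhibitors of cell division. In KN1, *Jun*, *Jund*, and *Egr1* alone reached 5% of cells, and none had another member among its 3 most alike of 4796 genes. *Jun* was nearest there to *Atp5g3* (0.10), *Jund* to *Plxdc2* (0.15), and *Egr1* to *Tnfaip6* (0.10).

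The number of members captured in a thinned cell differed between lines. In KN1 56.5% of cells held none of the 10 (54.9% to 58.2%), against 18.1% in XN1, 10.6% in CN4, and 8.42% in XN4. The mean was 2.32 per cell in XN4, 2.13 in CN4, 1.68 in XN1, and 0.575 in KN1. Over all genes the median thinned cell held 1650 in XN4, 1845 in CN4, 1809 in XN1, and 766 in KN1, so fewer genes of any kind were detected in KN1, and the part of this in the members' number was not tested. Cells with 5 or more members were 7.36% of XN4 (6.501% to 8.29%), 7.63% of CN4 (6.73% to 8.61%), 3.004% of XN1 (2.43% to 3.66%), and 0.147% of KN1 (0.0478% to 0.343%). The intervals of XN4 and CN4 overlapped, although different members were high in these lines, and the most in a cell was 8 in XN4, XN1, and CN4 and 5 in KN1.

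In XN4, XN1, and CN4, cells with a read of *Mki67*, a marker of dividing cells, held several of these genes less often. Such a read was found after thinning in 22.4% of XN4, 24.4% of XN1, 29.4% of KN1, and 50.2% of CN4 cells. *Junb* was captured in 18.6% of XN4 cells with *Mki67* (15.9% to 21.6%) and 28.3% without it (26.5% to 30.0%), in 9.70% and 16.2% in XN1, and in 5.30% and 11.2% in CN4. *Fosl2* was captured in 8.97% and 13.7% in XN4, 3.15% and 5.83% in XN1, and 1.58% and 4.45% in CN4. *Fos* was captured in 15.3% and 24.6% in XN4, 10.5% and 18.3% in XN1, and 27.8% and 34.1% in CN4. For *Junb*, *Fosl2*, and *Fos*, the fraction was lower with *Mki67* in these 3 lines, and the intervals did not overlap. The share of all genes with such intervals is not given. Of all genes captured in at least 5% of thinned cells, 45.8% were lower with *Mki67* in XN4, 48.4% in XN1, and 51.9% in CN4. *Zfp36* was lower with *Mki67* in the same lines, also without overlap, at 25.6% and 39.0% in XN4, 10.6% and 16.4% in XN1, and 8.27% and 11.3% in CN4. In KN1 none of these genes was lower with *Mki67*, and the intervals overlapped. Of all genes captured in at least 5% of thinned KN1 cells, only 17.3% were lower with *Mki67*, and these members did not reach that 5%. The fractions in KN1 with and without *Mki67* were 2.50% and 1.54% for *Fos*, 1.70% and 1.42% for *Junb*, 1.00% and 0.835% for *Fosl2*, and 1.30% and 1.29% for *Zfp36*.

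*Jun* and *Jund* differed less. *Jun* was in 11.5% of XN4 cells with *Mki67* and 11.3% without, in 33.3% and 34.4% of XN1 cells, and in 52.5% and 58.4% of CN4 cells. *Jund* was in 41.6% and 44.0%, 45.2% and 50.8%, and 57.8% and 58.0% of the same groups. *Egr1* was lower with *Mki67* in XN4 (62.3% and 72.3%) and CN4 (34.6% and 44.6%), and at 29.4% and 27.9% in XN1, with overlapping intervals. Over the members captured in at least 5% of thinned cells, the median ratio of the fraction with to that without *Mki67* was 0.666 in XN4, 0.646 in XN1, and 0.793 in CN4, against 1.02, 1.01, and 0.994 over all such genes. In KN1 it was 1.11 over 3 members, against 1.14 over all genes, with medians of 854.5 genes per thinned cell with *Mki67* and 735 without.

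**Figure D5:**
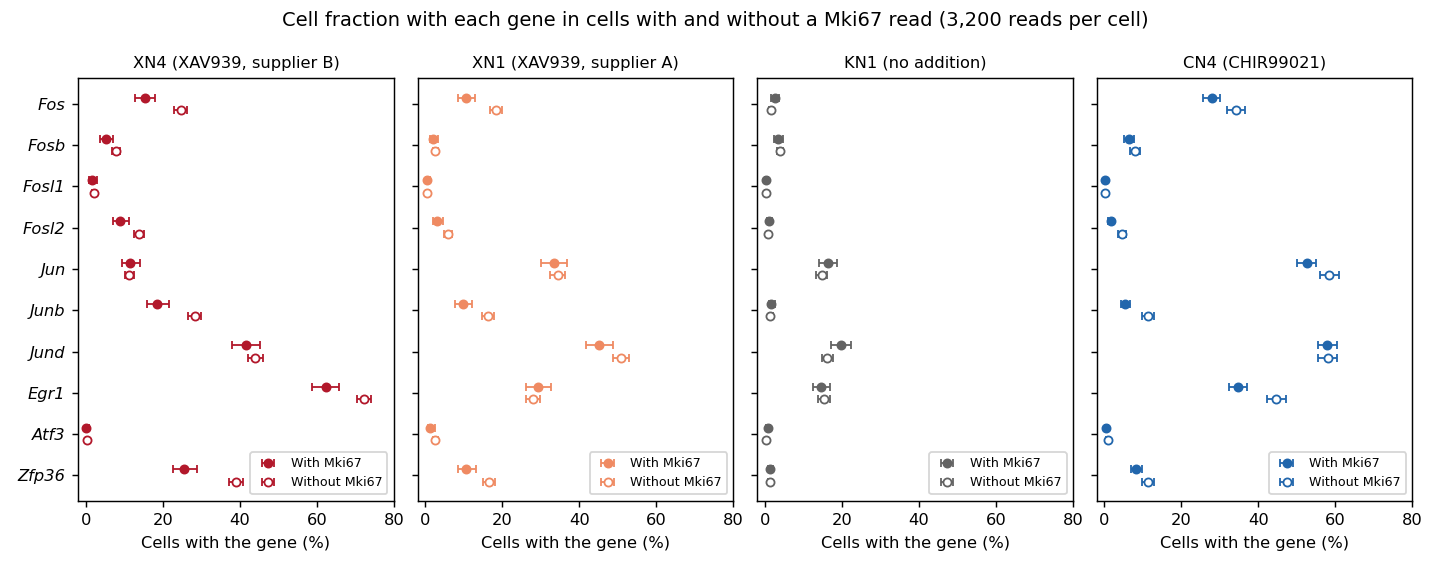
Percentage of thinned cells (3200 reads each) that held each gene, in cells with (filled) and without (open) a *Mki67* read, for each line; bars are exact 95% intervals. *Fos*, *Fosl2*, *Junb*, and *Zfp36* were lower with *Mki67* in XN4, XN1, and CN4, and *Jun* in XN4 and XN1 had overlapping bars.

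Other genes of the pathway were taken from lists chosen by function, and compared by the same rule, under which 20.2% of all genes were higher and 15.0% lower in XN4 than in XN1. Of 38 further immediate early genes, XN4 was at least 2-fold above XN1 in 7 and below in 13 of 35 compared, with a median log2 ratio of 0.21 against 0.13 over all genes. *Cyr61*, *Klf2*, and *Egr2* were 16.6-fold, 5.55-fold, and 4.81-fold higher in XN4, and *Gadd45g* and *Klf10* were 24.2-fold and 10.8-fold lower. *Ier2* was at 1.49 reads per 10000 in XN4, 0.641 in CN4, 0.393 in XN1, and 0.154 in KN1, the order of *Egr1*. CN4 was at least 2-fold above XN1 in 3 of 34 (9.55% of all genes), among them *Btg2* (2.64-fold) and *Egr2* (2.10-fold), and below in 12 (9.62% of all genes), among them *Ctgf* and *Cebpd* (9.83-fold). The immediate early genes outside the 10 thus included many that were higher in XN1 than in the CHIR line. KN1 was at least 2-fold below XN1 in 18 of 34 and above in 3, against 25.0% and 24.4% of all genes.

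Among 16 phosphatases and feedback inhibitors of MAP kinases, 6 of 13 compared were at least 2-fold lower in XN4 than in XN1, and none was at least 2-fold higher (median log2 ratio -0.50). Between CN4 and XN1, 2 of 15 were at least 2-fold higher in CN4 and 3 lower (-0.12), and between XN1 and KN1, 8 of 13 were higher in XN1 and 2 lower, against 25.0% and 24.4% of all genes. The shares of all genes higher and lower in CN4 than in XN1, 9.55% and 9.62%, hold for the counts of that comparison in all the lists. *Dusp6*, a phosphatase of ERK, was at 9.67 reads per 10000 in XN1, 3.70 in KN1, 3.49 in CN4, and 1.89 in XN4. *Dusp5*, another phosphatase of ERK, was at 0.848 in XN1, 0.235 in XN4, 0.157 in CN4, and 0.102 in KN1. *Dusp4* was 26.2-fold lower in XN4 than in XN1. Of the 20 compared kinase, receptor, and Ras genes upstream, 1 was at least 2-fold higher in XN4 than in XN1 (*Mapk3*, 2.16-fold) and 2 lower, with a median log2 ratio of 0.06, and 1 was higher and 1 lower in CN4 than in XN1. Of 6 genes of serum response factor and its partners, 1 was 2-fold apart between XN4 and XN1, none between CN4 and XN1, and 3 were at least 2-fold higher in KN1 than in XN1, *Mkl2* (7.39-fold), *Mkl1* (6.84-fold), and *Srf* (2.35-fold).

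Of 22 genes of matrix breakdown and growth known as AP-1 targets, XN4 was at least 2-fold above XN1 in 8 of 18 and below in 4 (median log2 ratio 0.89). Of 14 compared connective tissue markers, 11 were at least 2-fold higher in XN4 than in XN1 and 1 lower (median log2 ratio 5.92), and their part in the matrix genes was not tested. Between CN4 and XN1, 4 of 15 AP-1 targets were at least 2-fold higher in CN4 and 5 lower, with a median log2 ratio of -0.78. *Plau*, the urokinase protease gene, was at 1.48 reads per 10000 in XN4 and 0.0166 to 0.0366 in the other lines, and *Mmp2* at 13.8 in XN4 and 0.205 to 1.64 in the others. *Mmp3* and *Mmp9* were listed in XN4 and in none of the other normalized tables, at 0.172 and 0.286. *Tnc*, a matrix glycoprotein gene, and *Ccnd1* were 18.2-fold and 11.3-fold lower in XN4 than in XN1. Of the Egr1 relatives *Egr2* and *Egr3*, which are also among the 38 immediate early genes, and the corepressor genes *Nab1* and *Nab2*, whose proteins restrain Egr1, XN4 was at least 2-fold above XN1 in *Egr2* and *Nab2* (2.59-fold). Among 10 genes of the Zfp36 family and its decay partners, none was 2-fold apart between XN4 and XN1 or between XN4 and CN4, while *Zfp36* itself was 3.58-fold and 5.46-fold higher in XN4. Between CN4 and XN1, 1 of the 10, *Hnrnpd*, was 2-fold apart (2.33-fold higher in CN4).

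The other dimer partners of AP-1 proteins numbered 19, of which 16 were compared between XN4 and XN1. *Maf* was 6.58-fold higher in XN4, and *Maff* and *Crem* were 2.995-fold and 2.75-fold lower. Of 15 compared between CN4 and XN1, *Maf* was 3.78-fold higher in CN4, and *Batf3*, *Atf5*, and *Maff* were 7.90-fold, 6.86-fold, and 2.39-fold lower. Of 14 heat shock genes, 2 were at least 2-fold higher in XN4 than in XN1 (*Hspa1b*, 7.89-fold, and *Hspb1*, 2.94-fold) and *Hspa5* was 3.15-fold lower, with a median log2 ratio of -0.06. Between CN4 and XN1, *Hspa5* (3.68-fold) and *Hspb1* (3.48-fold) were lower in CN4, and none of the 14 was at least 2-fold higher, with a median of 0.10. Of 14 genes of the integrated stress response, 8 were at least 2-fold lower in XN4 than in XN1 and 9 lower in CN4 than in XN1, and none was at least 2-fold higher in either, with median log2 ratios of -1.34 and -1.74.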

How the data were processed

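Single-cell libraries of the lines XN4, XN1, KN1, and CN4 (1 each, grouped by line name in the labels) were analysed. Per the file headers, the authors made the read counts of XN4, XN1, and CN4 with the BD Rhapsody WTA pipeline 1.12.1 on GRCm38 with GENCODE release M19 and intronic reads counted, and these counts are reads, not molecular identifiers. The second kind of table deposited by the authors, for the 4 lines, holds natural log values, ln(1 + 10000 × reads / total), without ribosomal protein and mitochondrial genes, and per the labels Seurat 4.3.0 was used. The pipeline settings of KN1 are not given in the sources used here. Exact whole reads were recovered from the log values (tolerance 0.01).

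With Python 3.11.15, numpy 2.4.6, scipy 1.17.1, and matplotlib 3.10.9, levels were summed reads, with a floor of 3 reads for a fold, and cell fractions had at least 1 read. Depth was 19271688 to 41539513 reads per line. With 1 library per line, no test, SD, or p-value was computed. No doublet caller was run and no doublets were removed. Named genes were the 10 members, the 3 most alike genes of each, and up to 3 genes of each list with the largest folds each way; folds of genes not listed in a line are not printed. The genes *Ier2*, *Plau*, *Mmp2*, *Dusp5*, *Dusp6*, *Cxcl12*, *Hmga2*, and *Ccnd1* were named with levels or ratios after their values were seen. The alternatives were other totals and scalings, thinning to 3200 reads, the tables of all reads, thresholds of 1.5-fold and 3-fold, other filters, at least 2 reads, other strata, cells without the deepest 5%, and other measures of likeness; leaving *Gm42418* and *Malat1* out of the totals was added after seeing the data. Gene positions are from GENCODE M21 (GRCm38), and sequences from RefSeq (GRCm38.p6). The genes and lists were chosen with earlier results of these data known. Procedures were tested on simulated data.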

Additional observations from a re-analysis of the deposited data

How the results depend on the processing

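No paired analysis was possible because each line is 1 library. The paper's supplement gives XN1 and KN1 the same derivation experiment, and XN4 and CN4 another by a different experimenter, which was not used for pairing. The counts of members at least 2-fold apart were 8 for XN4 and XN1, 7 for XN4 and KN1, 7 for XN4 and CN4, 5 for XN1 and KN1, 5 for CN4 and XN1, and 6 for CN4 and KN1. At 3-fold they were 5 for XN4 and XN1, 2 for CN4 and XN1, and 3 for CN4 and KN1, and at 1.5-fold 8 for CN4 and XN1. By thinned cell fraction, CN4 and XN1 had 2. No shares of all genes are given at 3-fold, at 1.5-fold, or by thinned cell fraction, so these counts show only how the calls move. Under the other settings run, each count was within 1.5 times its main value. The split of higher and lower members changed from 5 and 2 to 4 and 3 for XN4 and CN4 with the mean share of a cell's reads, and to 5 and 1 with the tables of all reads or without the deepest cells. By thinned cell fraction it was 7 and 0 for XN4 and KN1 (6 and 1 by level) and for XN1 and KN1 (4 and 1 by level). By that measure the median gene was itself over 2-fold higher in XN4 and XN1 than in KN1, so this split was not particular to the members. For CN4 and XN1 the split was 3 and 2 by level, 3 and 1 by the mean share, and 3 and 3 in the tables of all reads. No called ratio of a member changed direction under these settings.

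The median co-capture ratio stayed above 1 under each setting. Without strata XN4 had 1.28, XN1 had 1.29, and KN1 had 2.02. With at least 2 reads XN4 had 1.1204, XN1 had 1.48, KN1 had 1.82, and CN4 had 1.4034. After thinning XN4 had 1.17, XN1 had 1.25, KN1 had 1.91, and CN4 had 1.29. Without the deepest 5% of cells it was 1.25 in XN1 and 1.71 in KN1, and in the tables of all reads CN4 had 1.17. The cause of these moves was not tested. The number of members with another member among their 3 most alike genes was 6, 5, 0, and 7 in XN4, XN1, KN1, and CN4, and it stayed within 1 of that by Pearson correlation and within strata of genes detected. With 1 library per line, the spread between libraries is unknown, and *Fosl1* and *Atf3*, with 10 to 501 reads per line, have the widest intervals.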
